A study of Mus musculus with 12 samples.

Results

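Cell cycle and proliferation genes were followed in the spleens of 12 mice, as a list of 44 genes whose products copy DNA, drive the cell through its phases or segregate chromosomes. Members were chosen by gene symbol, or by an older symbol where the platform annotation uses one, and the probe set with the highest mean stood for each gene, those ending in _x_at aside where there was another. Of the 44, 42 had a probe set of their own, among 12393 genes of the array, and Ccnb1 and Cdca8 were not analysed here. The mice formed 4 groups of 3: wild-type (labelled DUSP1+/+) and Dusp1 knockout (DUSP1-/-) mice, each either untreated or given lipopolysaccharide (LPS) from E. coli into the peritoneum, at 10 µg per g of body weight, 6 h earlier. Total RNA of each whole spleen was hybridized to an Affymetrix MOE430A 2.0 array, 1 mouse per array. LPS is an outer-membrane component of Gram-negative bacteria that triggers innate inflammation, and the Dusp1 product dephosphorylates MAP kinases. The strain, the age and the sex of the mice and the construction of the knockout allele are not given in the sources used here. The question set by the design is how the spleen responds to LPS with and without Dusp1.

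A proliferating cell first loads the MCM helicase onto replication origins, then copies its DNA with deoxynucleotides made by dedicated enzymes, and finally enters mitosis under cyclin-dependent, Polo and Aurora kinases, while a spindle checkpoint delays anaphase until all kinetochores are attached. Most of these genes are transcribed only in cycling cells, through E2F factors for the replication genes and through the DREAM and MMB complexes, with the CCAAT-binding factor NF-Y, for many mitotic genes. In mouse spleen the cycling cells include red cell and granulocyte precursors of the red pulp, where blood formation persists in the adult, and activated lymphocytes. In whole tissue, fewer cells of a type and less RNA per cell cannot be told apart.

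Promoters are shown for the letters that known regulators of such genes read. A RefSeq promoter (GRCm38.p6) was found for 35 of the 42 measured members and for 9887 genes of the array, and the 250 bases before the annotated start were searched on both strands. CCAAT, the core of the NF-Y site, stood in 26 of the 35 member promoters (74.3%) and in 35.8% of all 9887. TTTGAA, the core of the cell cycle homology region, stood in 10 (28.6%) against 11.6%, and both motifs stood together in 9 (25.7%) against 4.13%. Any of TTTGGCGC, TTTCGCGC, TTTCCCGC or TTCCCGCC, which are E2F sites and of which the last pair can overlap, stood in 6 (17.1%) against 4.88%. A match describes letters and is not a shown binding site. The following are the 4 members with an entry that had the smallest p for the LPS response averaged over genotypes; capitals mark a match to any of the motifs, which on the other strand reads ATTGG for CCAAT and GCGGGAAA for TTTCCCGC.
Cenpa, chr5:30666636-30666885, plus strand: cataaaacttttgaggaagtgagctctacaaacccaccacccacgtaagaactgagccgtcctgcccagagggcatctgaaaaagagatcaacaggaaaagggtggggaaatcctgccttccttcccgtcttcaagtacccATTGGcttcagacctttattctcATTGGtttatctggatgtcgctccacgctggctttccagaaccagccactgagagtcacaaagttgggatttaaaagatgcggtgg
Mcm7, chr5:138171884-138172133, minus strand: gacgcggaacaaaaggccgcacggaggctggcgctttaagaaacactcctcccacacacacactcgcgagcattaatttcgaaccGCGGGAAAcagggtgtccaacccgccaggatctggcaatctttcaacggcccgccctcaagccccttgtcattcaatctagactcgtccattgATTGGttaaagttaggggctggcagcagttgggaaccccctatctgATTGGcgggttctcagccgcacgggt
Bub1b, chr2:118597961-118598210, plus strand: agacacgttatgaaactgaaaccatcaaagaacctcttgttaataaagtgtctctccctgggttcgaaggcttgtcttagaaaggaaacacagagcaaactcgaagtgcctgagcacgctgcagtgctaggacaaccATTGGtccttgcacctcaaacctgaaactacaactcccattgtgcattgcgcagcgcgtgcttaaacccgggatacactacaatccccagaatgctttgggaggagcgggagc
Mad2l1, chr6:66534971-66535220, plus strand: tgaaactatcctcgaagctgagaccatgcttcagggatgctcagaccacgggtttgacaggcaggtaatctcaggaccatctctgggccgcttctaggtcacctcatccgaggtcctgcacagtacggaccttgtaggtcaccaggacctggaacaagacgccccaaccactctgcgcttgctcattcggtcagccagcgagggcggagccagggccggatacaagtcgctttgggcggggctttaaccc
Cenpa and Mcm7 each carry 2 CCAAT matches, the nearer ending 81 and 21 bases before the start. Mcm7 also carries an E2F match that ends 157 bases before the start. Mcm7 has 2 promoter entries, and only the first was searched, as for every gene with more than 1. Bub1b carries 1 CCAAT match, 108 bases before the start, and the Mad2l1 window holds none of the searched letters.

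The deposited intensities ran from 6 to 15228, with array medians from 47 to 64. Dusp1 itself read 479 to 1354 (wild-type) and 677 to 1528 (knockout) in controls, and 2116 to 2248 and 2948 to 4996 after LPS, so its probe set gave no check of the knockout labels, and "knockout" means the label throughout. Spleen markers were present on every array: the B cell gene Cd79a read 730 to 4499 and the T cell gene Cd3e 142 to 591. Xist was low (35 and 47) and the Y-linked Eif2s3y raised (316 and 53) in wild-type controls 2 and 3 against 1101 to 3949 and 7 to 10 on the others, so these 2 controls differ in sex pattern from the rest. The pancreas gene Prss2 read 8116, 3981 and 503 in 3 controls (wild-type 1, knockout 1 and knockout 3), and 25 to 53 elsewhere. The mean log2 level of 10 liver markers was 9.95 in knockout control 2. It was 4.45 and 4.44 in wild-type and knockout control 1, and 6.48 to 9.45 elsewhere. For 8 lung markers it was 6.77 and 6.69 in knockout controls 2 and 3, 6.81 and 6.10 in knockout LPS 1 and 3, and 4.33 to 5.33 elsewhere.

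LPS was followed by lower signal for most cell cycle genes, and 8 of the 42 fell in the response averaged over both genotypes: Cenpa, Mcm7, Gmnn, Bub1b, Mad2l1, Tk1, Kif20a and Bub1 (14.3% of all genes fell). None rose (8.52% of all genes did), and the count of 8 lay not far above the share of all genes that fell. Folds among the 8 lay between 1.71 for Bub1b and 3.38 for Bub1. The median log2 difference over the 42 members was -1.01, against -0.04 over all genes, and 40 of the 42 were below 0 (55% of all genes). At an unadjusted p under 0.05, 21 members were lower (21.7% of all genes). In knockout spleen 5 members fell, a count near the share of all genes (9.71%), and none rose (5.54%). The median there was -1.34 against -0.06 for all genes, with 39 of 42 below 0 (56%). At an unadjusted p under 0.05, 18 were lower there (18.3%) and 0 higher (9.85%). In wild-type spleen no member passed the test in either direction (4.16% of all genes fell and 3.93% rose), with a median of -0.67 against -0.03, and 2 members, Cenpa and Foxm1, had an unadjusted p under 0.05 (12.1% of all genes lower), with 0 higher (9.29%) and 40 of 42 below 0 (52.7%). Each test is limma's two-sided moderated test on log2 intensity, called at a Benjamini-Hochberg adjusted p under 0.05 over all probe sets. When every array was shifted to 1 median, the all-gene medians were 0.09, 0.15 and 0.13 in wild-type spleen, in knockout spleen and in the average, 12% of all genes rose and 10.1% fell in the average, and 2 members fell (0 in knockout spleen, against 6.12% of all genes). With 1 array left out, 1 (without knockout LPS 1) to 16 members (without knockout control 3) fell in the average (10.5% and 12.7% of all genes); the count was 5 or fewer without wild-type control 1 or 2 or any of the LPS arrays. In knockout spleen it was 0 (without knockout LPS 1 or 3, 4.59% and 5.33% of all genes) to 10 (without knockout control 3, 6.79%), and 3 or fewer also without wild-type LPS 2, wild-type LPS 3, knockout control 1 or knockout LPS 2.

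**Figure D1:**
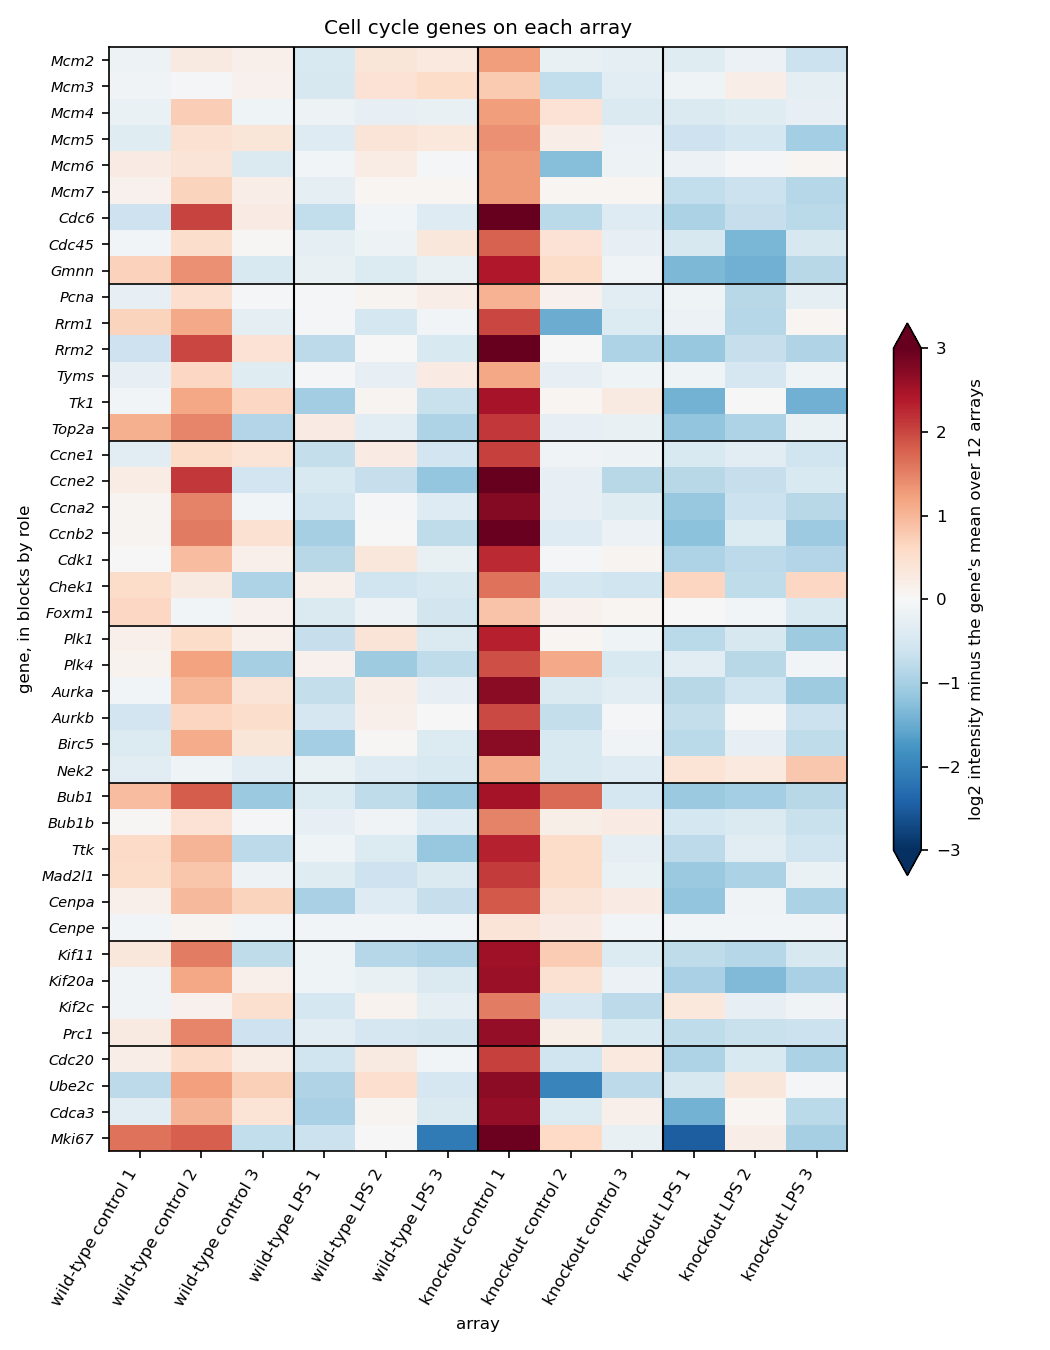
Each row is 1 of the 42 measured cell cycle genes, in blocks by role, and each column 1 of the 12 arrays; colour is the log2 intensity minus that gene's mean over the 12 arrays, and values past 3 in either direction share the end colour. Knockout control 1 is the highest array in all 42 rows, and wild-type control 2 the next highest in 35.

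Before any comparison of groups, 1 array stood apart. All 42 members were highest in knockout control 1, where 9.27% of all genes were highest, and for 35 of them wild-type control 2 came next. Knockout control 1 exceeded the geometric mean of knockout controls 2 and 3 by a median of 4.57-fold, from 1.23 for Cenpe to 18.4 for Ccne2, and by over 2-fold for 40 members (5.93% of all genes). Wild-type control 2 exceeded the geometric mean of its 2 fellow controls by a median of 1.82-fold, from 0.734 for Foxm1 to 4.91 for Ccne2. The spread among mice was widest in the controls: the members' median SD on the log2 scale was 1.31 in knockout controls and 0.58 in wild-type controls, but 0.36 and 0.26 after LPS in wild-type and knockout mice. Over all genes these SDs were 0.36, 0.31, 0.25 and 0.23. The members' main counts and medians are given with and without knockout control 1. The same holds for single LPS differences in knockout spleen where that array moved the fold by over 1.5 times.

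Markers of red cell precursors moved with the same arrays. All 17 measured markers were highest in knockout control 1, where 9.27% of all genes were highest. Their mean log2 level was 10.98 there against 6.54 and 5.76 in the other knockout controls, 9.72 in wild-type control 2 against 7.30 and 7.88, and 6.46 to 7.95 in the 6 LPS mice. Klf1, the master transcription factor of red cell formation, read 3923, 64 and 30 in the knockout and 171, 1389 and 400 in the wild-type controls, against 29, 165 and 35 and 52, 434 and 111 after LPS. Alas2 of the same list read 6793, 626 and 596 in knockout controls against 3148, 3105 and 4010 after LPS. In wild-type mice Alas2 read 847, 4537 and 4368 against 1668, 2721 and 2241. Of the 17 markers, 0 passed the test in the LPS response of either genotype. Over all genes 4.16% fell and 3.93% rose in wild-type spleen, and 9.71% and 5.54% in knockout spleen. All 17 were below 0 in wild-type spleen (52.7% of all genes), at a median of -1.11. In knockout spleen, with knockout control 1 included, 14 were below 0 (56%) and 3 above it, at a median of -0.70. The 12 neutrophil and precursor markers averaged 9.02 in wild-type control 2 and 8.85 in knockout control 1, against 7.14 to 8.10 on the other 10 arrays. The 12 T cell markers averaged 7.21 in knockout control 1 and 8.18 to 8.91 in the other controls, and the 10 B cell markers 9.01 against 9.87 to 10.15.

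**Figure D2:**
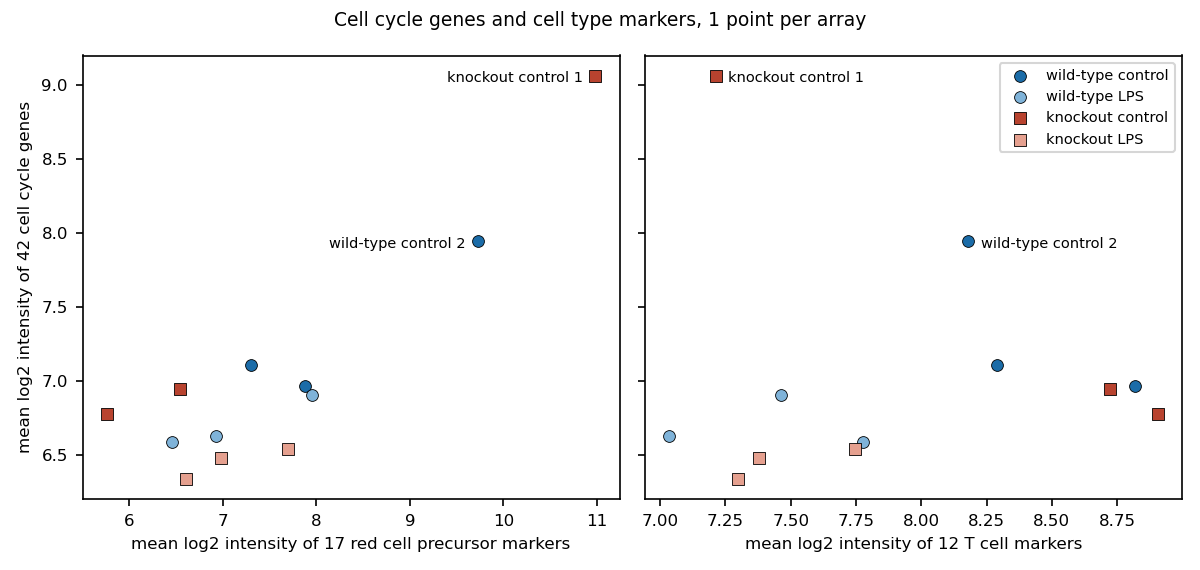
Each point is 1 array; the y axis is the mean log2 intensity of the 42 cell cycle genes and the x axis that of 17 red cell precursor markers (left) or 12 T cell markers (right). Knockout control 1 (9.06 on the y axis) and wild-type control 2 (7.95) lie above the other 10 arrays, at the right of the red cell panel, and knockout control 1 lies to the left among the controls in the T cell panel.

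Without knockout control 1 the members' median in knockout spleen was -0.55 instead of -1.34 (all genes -0.10). Then 3 members fell (Mcm7, Bub1b and Kif20a, 11.6% of all genes) and 1, the centrosome kinase Nek2, rose by 0.93 ± 0.19 (4.7%). In the averaged response the median became -0.58 and 8 members fell (16.6% of all genes), with Ccnb2 in and Bub1 out, while Nek2 rose by 0.42 ± 0.13 (8.16%). In wild-type spleen, where leaving out this array changes only the estimate of spread, Cenpa then fell (adjusted p = 0.0318, 5.74% of all genes). Without both knockout control 1 and wild-type control 2, a choice made after seeing the data, the averaged median was -0.43 and 5 members fell, namely Mcm7, Gmnn, Bub1b, Cenpa and Kif20a (14.6% of all genes), while 0 fell in wild-type spleen (3.54%) and 4 in knockout spleen (10.6%). With the red cell precursor level as a covariate 13 members fell in the averaged response (15.6%) and 19 in knockout spleen (11.9%), at medians of -0.55 and -1.05; in wild-type spleen Cenpa alone fell (5.52%) and the median was -0.10. Without wild-type controls 2 and 3, Foxm1 alone fell in the averaged response (8.74%), at a median of -0.74, and in wild-type spleen the median was -0.22. That fit leaves 1 wild-type control, the mouse with the highest Prss2, which is assumed to vary like the other groups.

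**Figure D3:**
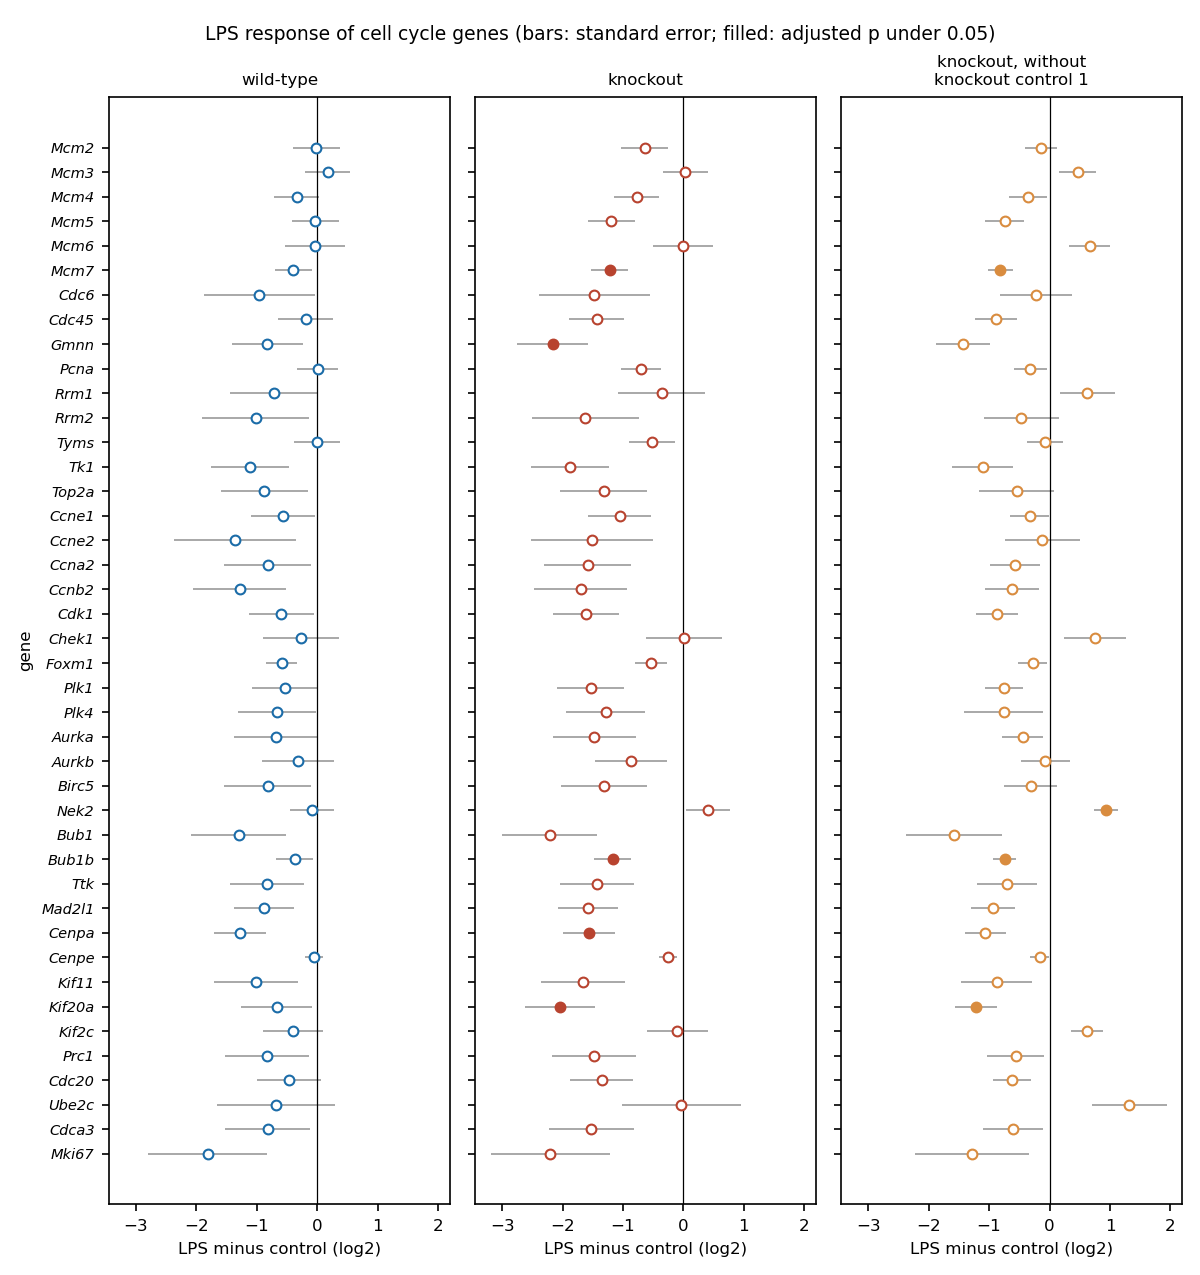
Each row is 1 member; the x axis is the LPS minus control difference in log2 intensity in wild-type spleen (left), in knockout spleen (middle) and in knockout spleen without knockout control 1 (right). Circles are limma estimates from up to 3 mice a group, bars are standard errors and filled circles have an adjusted p under 0.05; 40, 39 and 35 of the 42 estimates lie below 0.

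The replication licensing group has 9 members, all measured, of which Mcm7 and Gmnn fell. Mcm7, a subunit of the MCM helicase (probe set 1438320_s_at), read 1905, 2772 and 2005 in wild-type controls, 1420, 1804 and 1814 in wild-type LPS mice, 4235, 1818 and 1809 in knockout controls and 1035, 1104 and 965 in knockout LPS mice. Every LPS mouse was below every control of its genotype. Mcm7 fell by 1.22 ± 0.31 in knockout spleen (2.33-fold, adjusted p = 0.0252) and by 0.81 ± 0.22 in the average (1.75-fold, adjusted p = 0.0232), and its wild-type difference was -0.40 ± 0.31 (adjusted p = 0.584). The knockout call did not hold without any 1 of the knockout LPS arrays (adjusted p from 0.00153 to 0.101 over 26 alternatives). The averaged call did not hold without wild-type control 2, wild-type LPS 1, knockout LPS 1 or knockout LPS 3, and its adjusted p lay between 0.00427 and 0.157 over 25 alternatives. Geminin (Gmnn, 1417506_at), which blocks a further round of origin loading, read 297, 474 and 134 in wild-type controls, 156, 137 and 157 in wild-type LPS mice, 962, 269 and 169 in knockout controls and 72, 67 and 102 in knockout LPS mice. Its groups overlapped in wild-type spleen through control 3 and did not in knockout spleen. Gmnn fell by 2.16 ± 0.59 in knockout spleen (4.46-fold, adjusted p = 0.0354; 2.70-fold without knockout control 1, adjusted p = 0.0637) and by 1.49 ± 0.42 in the average (adjusted p = 0.0274), with an adjusted p of 0.0114 to 0.0663 over 25 alternatives. That call did not hold without wild-type control 1, wild-type control 2, wild-type LPS 2, wild-type LPS 3, knockout LPS 1 or knockout LPS 2. The knockout call did not hold without wild-type LPS 2 or 3, knockout control 1 or 2, or any of the knockout LPS arrays (adjusted p from 0.00972 to 0.114).

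The other helicase subunits gave wild-type log2 differences of -0.02 ± 0.39 (Mcm2), 0.17 ± 0.37 (Mcm3), -0.34 ± 0.37 (Mcm4), -0.04 ± 0.39 (Mcm5) and -0.04 ± 0.50 (Mcm6), none past the test. In knockout spleen Mcm5 differed by -1.19 ± 0.39 (adjusted p = 0.0733), Mcm4 by -0.77 ± 0.37, Mcm2 by -0.64 ± 0.39, Mcm3 by 0.03 ± 0.37 and Mcm6 by -0.00 ± 0.50 (0.66 ± 0.34 without knockout control 1). The helicase activator Cdc45 differed by -1.44 ± 0.45 in knockout spleen (adjusted p = 0.0637) and by -0.19 ± 0.45 in wild-type spleen. Cdc6, which loads the helicase, read 673 in knockout control 1 and 43 and 57 in the other knockout controls, and 49, 306 and 89 in wild-type controls, against 39 to 71 in the 6 LPS mice. The group medians were -0.19 in wild-type and -1.19 in knockout spleen, and -0.35 in knockout spleen without knockout control 1.

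DNA synthesis and nucleotide supply has 6 members, of which 1 fell. Thymidine kinase (Tk1, 1416258_at), which salvages thymidine for DNA, read 150, 354 and 246 in wild-type controls, 77, 168 and 100 in wild-type LPS mice, 885, 165 and 194 in knockout controls and 60, 162 and 59 in knockout LPS mice. The highest LPS mouse overlapped the lowest control in wild-type spleen, and in knockout spleen lay just under it. Tk1 fell by 1.49 ± 0.45 in the average (2.82-fold, adjusted p = 0.0408); the call did not hold without wild-type control 2, wild-type control 3, wild-type LPS 1, wild-type LPS 3, knockout LPS 1 or knockout LPS 3, and the adjusted p lay between 0.00901 and 0.242 over 25 alternatives. Pcna, the sliding clamp of DNA polymerases, had wild-type groups that overlapped (2432, 4055 and 2770 in controls; 2769, 3038 and 3277 after LPS; difference 0.00 ± 0.34). After LPS in knockout mice Pcna read 2616, 1612 and 2324, against 5911, 3120 and 2277 in their controls. Rrm2, a subunit of ribonucleotide reductase, read 2445 in knockout control 1 and 1202 in wild-type control 2, and 135 to 400 on the other 10 arrays. The group medians were -0.80 in wild-type and -1.01 in knockout spleen (-0.39 without knockout control 1).

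None of the 7 measured members among cyclins, Cdk1 and the S and G2 regulators passed the test. Cdk1, the mitotic kinase itself (1448314_at), read 293, 558 and 329 in wild-type controls, 165, 375 and 252 in wild-type LPS mice, 1398, 283 and 313 in knockout controls and 155, 172 and 161 in knockout LPS mice. The knockout groups did not overlap and the wild-type groups did. Its difference was -1.62 ± 0.54 in knockout spleen (adjusted p = 0.0822; -0.87 ± 0.35 without knockout control 1) and -0.60 ± 0.54 in wild-type spleen (adjusted p = 0.667). Ccnb2, a B-type mitotic cyclin, read 206, 572 and 269 in wild-type controls against 97, 197 and 114 after LPS, and 1506, 148 and 171 in knockout controls against 83, 147 and 91 after LPS. Its groups did not overlap in either genotype, by a margin of 1 intensity unit in knockout mice, and the averaged difference was -1.49 ± 0.54 (adjusted p = 0.0796). The proliferation-linked transcription factor Foxm1 read 76, 47 and 54 against 37, 45 and 34 in wild-type spleen and 90, 54 and 52 against 49, 47 and 36 in knockout spleen, an averaged difference of -0.56 ± 0.18 (adjusted p = 0.0537). Chek1, the replication checkpoint kinase, had differences of -0.28 ± 0.63 in wild-type and 0.01 ± 0.63 in knockout spleen (0.75 ± 0.51 without knockout control 1). The group medians were -0.60 and -1.52, the latter -0.33 without knockout control 1.

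The mitotic kinases and the chromosomal passenger complex held 6 measured members and no call. Birc5 (survivin, a passenger subunit, 1424278_a_at) read 258, 745 and 437 in wild-type controls, 169, 351 and 257 in wild-type LPS mice, 2250, 248 and 317 in knockout controls and 195, 290 and 203 in knockout LPS mice. Both pairs of groups overlapped, and its averaged difference was -1.07 ± 0.51 (adjusted p = 0.181). Plk1 and Aurka, the Polo-like and Aurora kinases that build the spindle, had knockout differences of -1.54 ± 0.55 and -1.47 ± 0.69 (adjusted p = 0.102 and 0.216) with no overlap of groups, and -0.75 ± 0.31 and -0.45 ± 0.34 without knockout control 1. The median of this group in knockout spleen was -1.30, and -0.38 without that array. Nek2, a kinase of centrosome separation, was the member with the highest averaged difference (0.16 ± 0.26). It read 21, 24 and 21 in wild-type controls, 23, 20 and 19 in wild-type LPS mice, 58, 19 and 20 in knockout controls and 35, 32 and 46 in knockout LPS mice. The knockout LPS mice lay above every wild-type mouse and above knockout controls 2 and 3, at intensities near the dim end of the array. Nek2 is 1 of 7 members whose mean lay at or under the 40th percentile of all probe sets.

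The kinetochore and spindle checkpoint group held 4 of the 8 averaged calls. Cenpa, the histone variant that marks centromeres (1450842_a_at), read 376, 661 and 539 in wild-type controls, 171, 260 and 210 in wild-type LPS mice, 1201, 438 and 403 in knockout controls and 149, 315 and 174 in knockout LPS mice. All 6 LPS mice lay below all 6 controls. Cenpa fell by 1.42 ± 0.30 in the average (2.68-fold, adjusted p = 0.0073) and by 1.57 ± 0.43 in knockout spleen (2.96-fold, adjusted p = 0.036), and its wild-type difference was -1.28 ± 0.43 (2.43-fold, adjusted p = 0.114). The averaged call held without any 1 array and in 24 of 25 alternatives, with adjusted p from 0.000856 to 0.0769; the knockout call did not hold without wild-type LPS 3, knockout control 1, knockout LPS 1 or knockout LPS 3, and its adjusted p lay between 0.00255 and 0.143.

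**Figure D4:**
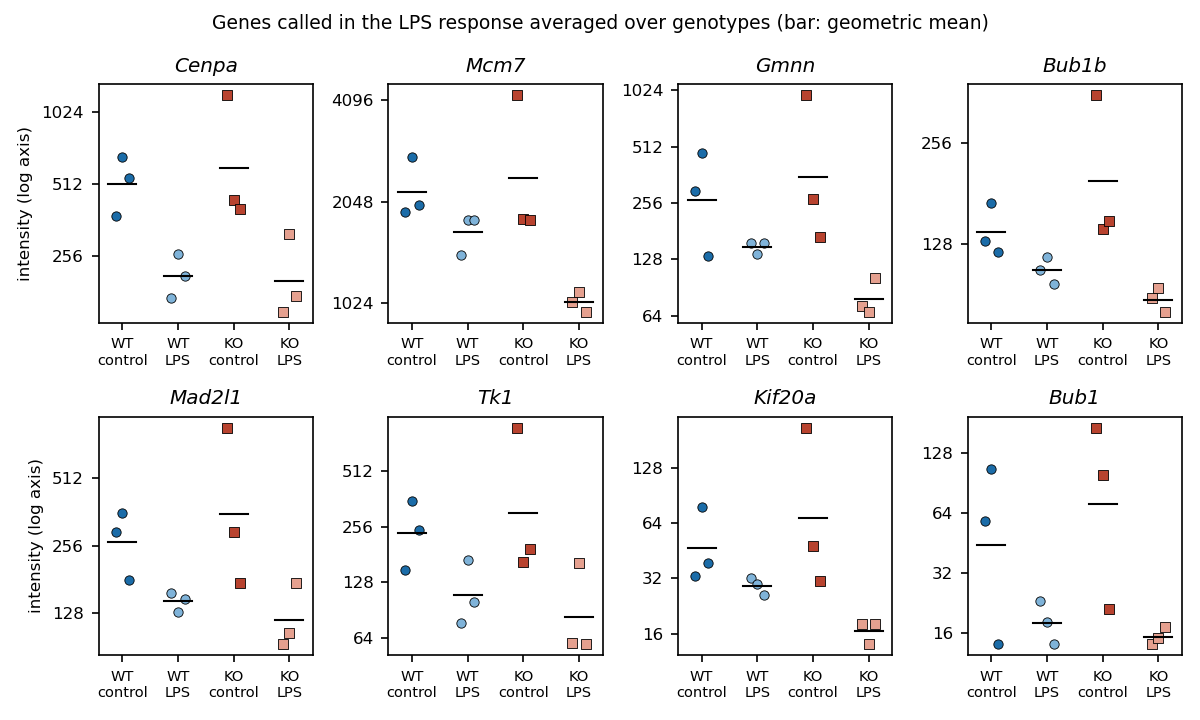
Each panel is 1 of the 8 members that fell in the averaged LPS response; points are the intensities of single mice on a log axis, circles for wild-type and squares for knockout, and bars are geometric means of 3 mice. For Cenpa all 6 LPS mice are below all 6 controls, and in every panel the highest point is knockout control 1.

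Bub1b, the kinetochore checkpoint protein BubR1 (1416961_at), read 130, 169 and 121 in wild-type controls, 107, 117 and 97 in wild-type LPS mice, 355, 142 and 150 in knockout controls and 88, 94 and 80 in knockout LPS mice. Its groups did not overlap in either genotype. Bub1b fell by 1.17 ± 0.31 in knockout spleen (2.25-fold, adjusted p = 0.0307) and by 0.77 ± 0.22 in the average (adjusted p = 0.029, from 0.00749 to 0.132 over 25 alternatives). The knockout call did not hold without any 1 of the knockout LPS arrays (adjusted p from 0.00297 to 0.123). The averaged call did not hold without wild-type control 2, wild-type LPS 1, wild-type LPS 3, knockout LPS 1 or knockout LPS 3. Mad2l1, the checkpoint protein that holds back Cdc20 (1422460_at), read 294, 357 and 180 in wild-type controls, 157, 130 and 148 in wild-type LPS mice, 860, 295 and 175 in knockout controls and 93, 104 and 174 in knockout LPS mice. Its groups did not overlap either, by 1 intensity unit in knockout mice. Mad2l1 fell by 1.23 ± 0.35 in the average (2.34-fold, adjusted p = 0.0319), a call lost without wild-type control 1, wild-type control 2, wild-type LPS 1, wild-type LPS 2, wild-type LPS 3, knockout LPS 1 or knockout LPS 2, with adjusted p from 0.00915 to 0.0945. Bub1, a checkpoint kinase (1424046_at), read 58, 107 and 14 in wild-type controls, 23, 18 and 14 in wild-type LPS mice, 172, 99 and 21 in knockout controls and 14, 15 and 17 in knockout LPS mice. Wild-type control 3 was as low as the lowest LPS mice. Its averaged fall of 1.76 ± 0.56 (3.38-fold, adjusted p = 0.0484) held in 7 of 24 alternatives, with adjusted p from 0.00924 to 0.322. The call was lost without any 1 of 10 arrays, that is all but wild-type control 3 and knockout control 3. Like Nek2, Bub1 has a mean at or under the 40th percentile of all probe sets. The further probe set of Bub1 gave -0.19 ± 0.12 in the average (adjusted p = 0.322). The checkpoint kinase Ttk differed by -1.13 ± 0.44 in the average (adjusted p = 0.0979), and the kinetochore motor Cenpe sat between 8 and 11 on every array, near the lowest deposited value. The group medians were -0.86 in wild-type and -1.50 in knockout spleen, with -0.84 when knockout control 1 was left out.

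Among 4 spindle motor and cytokinesis genes 1 fell. Kif20a, a kinesin of the central spindle (1449207_a_at), read 33, 79 and 39 in wild-type controls, 32, 30 and 26 in wild-type LPS mice, 213, 48 and 31 in knockout controls and 18, 14 and 18 in knockout LPS mice. Its groups did not overlap in either genotype, and the wild-type gap was 1 intensity unit. Kif20a fell by 2.04 ± 0.59 in knockout spleen (4.12-fold, adjusted p = 0.0439; 2.33-fold without knockout control 1, adjusted p = 0.0458) and by 1.36 ± 0.41 in the average (adjusted p = 0.0412, from 0.00889 to 0.211). The averaged call did not hold without wild-type control 2, wild-type control 3 or any 1 of the 6 LPS arrays, and the knockout call held only without wild-type control 2, knockout control 1 or knockout control 3 among the fits that left out 1 array (adjusted p from 0.00266 to 0.142). Prc1, which bundles microtubules at the midzone, and the bipolar kinesin Kif11 had knockout differences of -1.49 ± 0.70 and -1.66 ± 0.70 (adjusted p = 0.216 and 0.162), and the depolymerizing kinesin Kif2c one of -0.10 ± 0.50. Without knockout control 1 these were -0.56 ± 0.47, -0.87 ± 0.58 and 0.62 ± 0.27. The group medians were -0.76 and -1.57, the latter -0.72 without that array.

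The last group joins Cdc20, the activator of the anaphase-promoting complex, its partner enzyme Ube2c, Cdca3 and the proliferation marker Mki67, and held no call in 4 members. Ube2c (1452954_at) read 342, 1384 and 957 in wild-type controls, 315, 828 and 415 in wild-type LPS mice, 3746, 149 and 343 in knockout controls and 418, 749 and 571 in knockout LPS mice. Apart from knockout control 1, every knockout LPS mouse exceeded the knockout controls, and the knockout difference was -0.03 ± 0.98 with that array and 1.32 ± 0.62 without it. Mki67 read 1001, 1129 and 196 in wild-type controls, 209, 324 and 75 in wild-type LPS mice, 2512, 493 and 277 in knockout controls and 58, 372 and 163 in knockout LPS mice. Its averaged difference of -2.01 ± 0.70 was the lowest of the 42 (4.03-fold), with groups that overlapped in both genotypes and an adjusted p of 0.068. The group medians were -0.76 and -1.44, the latter -0.61 without knockout control 1.

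Counted by whether groups overlapped, 7 members were lower after LPS in wild-type spleen (14.8% of all genes) and 20 in knockout spleen (17.6%), and none was higher (10.2% and 11.3%). The 7, which were Mcm7, Ccnb2, Foxm1, Bub1b, Mad2l1, Cenpa and Kif20a, were lower without overlap in both genotypes, as were 8.49% of all genes.

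Between genotypes no member passed the test. In controls the members' median knockout minus wild-type difference was 0.26 (all genes 0.07), 37 of 42 were above 0 (62.5% of all genes) and 0% of all genes were called. At an unadjusted p under 0.05 no member differed (0.767% of all genes higher and 0.654% lower). Without knockout control 1 this median was -0.34 and 38 of the 42 were below 0, so the direction in controls rested on that mouse. After LPS the members' median was -0.27 (all genes 0.02), with 34 of 42 below 0 (46.7% of all genes) and 0 called (0.145% of all genes lower and 0.218% higher). Groups did not overlap for 10 members lower in knockout LPS mice (9.6% of all genes) and for 1, Nek2, higher (8.73%). At an unadjusted p under 0.05, 1 member was lower (Mcm7, -0.69 ± 0.31, adjusted p = 0.548, 6.16% of all genes) and 1 higher (Nek2, 0.85 ± 0.36, adjusted p = 0.518, 4.08%). All 9 licensing members were lower in knockout than in wild-type LPS mice (46.7% of all genes), at a median of -0.47 and with none called. Lower without overlap were 5 of them (9.6% of all genes), namely Mcm4, Mcm5, Mcm7, Cdc45 and Gmnn. The Mcm4 gap was narrow, from 336 in knockout to 339 in wild-type LPS mice. All 6 DNA synthesis members were lower as well, at a median of -0.41. Of 6 kinetochore members 5 were lower and 0 higher, and the remaining role lists held members on both sides of 0. Mcm5 read 311, 531 and 507 in wild-type LPS mice against 265, 283 and 199 in knockout LPS mice (-0.83 ± 0.39, adjusted p = 0.597). Across the 6 LPS arrays the red cell precursor markers averaged 6.46, 7.95 and 6.93 (wild-type) against 6.60, 7.70 and 6.98 (knockout), so the ranges of that list overlapped.

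The interaction, the knockout minus the wild-type LPS response, had a median of -0.60 over members (all genes -0.06) and no call among members or among all genes (0%). At an unadjusted p under 0.05, 0 members were lower (3.98% of all genes) and 0 higher (2.48%), and 35 of 42 were below 0 (56.1%). With knockout control 1 included, the interaction was lowest for Kif20a (-1.37 ± 0.83, adjusted p = 1) and highest for Ube2c (0.66). Both values rest in part on that array. Without knockout control 1 the median was 0.22, on the other side of 0. The larger count of calls in knockout than in wild-type spleen was thus not matched by a called interaction for any member.

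Lists of cell cycle regulators outside the 42 are read against the 8.52% of all genes that rose and the 14.3% that fell in the averaged response. Of 7 measured inhibitors of cyclin-dependent kinases, 2 rose and 1 fell in the averaged response. Cdkn1a, which encodes the p53-inducible inhibitor of cell cycle kinases, read 95, 110 and 148 in wild-type controls, 549, 647 and 587 in wild-type LPS mice, 93, 159 and 126 in knockout controls and 1013, 1848 and 894 in knockout LPS mice. No LPS mouse overlapped a control. Cdkn1a rose by 2.36 ± 0.30 in wild-type spleen (5.13-fold, adjusted p = 0.00129) and by 3.27 ± 0.30 in knockout spleen (9.65-fold, adjusted p = 0.000107), in each of the alternatives. Cdkn2b, an inhibitor of the G1 kinases, rose by 1.98 ± 0.24 in the average (adjusted p = 0.000278), while Cdkn2c of the same family fell by 1.57 ± 0.37 (adjusted p = 0.0125, and 0.104 without wild-type controls 2 and 3).

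Of 11 G1 cyclins, kinases and CDC25 phosphatases, 1 rose and 2 fell in the average. Ccnd2, a D-type cyclin of the G1 phase, read 1014, 1059 and 1521 in wild-type controls against 2891, 4442 and 4835 after LPS, and 644, 1408 and 1293 in knockout controls against 5099, 3354 and 4015 after LPS. Ccnd2 rose by 1.85 ± 0.23 (3.61-fold, adjusted p = 0.000324). Cdk2, the S phase kinase, and Cdc25b, a phosphatase that activates Cdk1, fell by 0.82 ± 0.19 and 1.43 ± 0.38 (adjusted p = 0.0122 and 0.0227). The Cdk2 call did not hold without wild-type controls 2 and 3 or with every array shifted to 1 median (adjusted p up to 0.116); Cdc25b was lost without wild-type control 2, wild-type LPS 1, wild-type LPS 3 or knockout LPS 1, without wild-type controls 2 and 3, without knockout control 1 and wild-type control 2, and with values under 20 raised to 20, with an adjusted p of up to 0.192. Of 12 E2F and retinoblastoma family genes 1 rose and 3 fell. The pocket protein gene Rbl2, a repressor in resting cells, read 202, 358 and 322 against 153, 91 and 55 in wild-type spleen and 213, 428 and 240 against 33, 44 and 59 in knockout spleen, and fell by 2.15 ± 0.29 (4.45-fold, adjusted p = 0.000497). E2f6, a repressor, read 102, 153 and 130 against 100, 131 and 124 in wild-type spleen, which overlap, and 209, 122 and 119 against 54, 36 and 49 in knockout spleen, where it fell by 1.66 ± 0.26 (3.17-fold, adjusted p = 0.0025); its averaged fall was 0.89 ± 0.19. The dim Lin9 fell by 0.59 ± 0.14 in the average (adjusted p = 0.0127, and up to 0.62 over alternatives), and the repressor E2f5 rose by 0.91 ± 0.19 (adjusted p = 0.00722).

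Among 17 quiescence and growth-arrest genes 2 rose and 6 fell in the average. Gadd45g, a growth-arrest and stress gene, read 44, 51 and 70 against 294, 284 and 314 in wild-type spleen and 31, 107 and 91 against 642, 698 and 647 in knockout spleen, and rose by 2.88 ± 0.27 (7.37-fold, adjusted p = 6.13e-05). Gadd45b rose by 2.58 ± 0.26 (adjusted p = 7.94e-05, and 0.0719 on its dimmest probe set). Ccng2, a cyclin of arrested cells, and the antiproliferative gene Tob1 fell by 2.03 ± 0.28 and 1.64 ± 0.27 (adjusted p = 0.000587 and 0.00171), so the list held genes moving both ways. Of 10 MYC network genes 3 rose and 3 fell. Myc rose from 230, 535 and 672 to 1168, 3055 and 2195 in wild-type spleen and from 357, 570 and 410 to 2662, 2613 and 1934 in knockout spleen, by 2.32 ± 0.30 in the average (4.98-fold, adjusted p = 0.000441). Mxd1, a MYC antagonist, rose by 1.69 ± 0.28, whereas its relative Mxd4 fell by 2.68 ± 0.31 (6.39-fold, adjusted p = 0.000202, and 0.291 on its dimmest probe set). Mlx, a MAX-like protein, was called between genotypes after LPS. It read 158, 186 and 170 in wild-type LPS mice against 85, 67 and 69 in knockout LPS mice. The difference was -1.22 ± 0.21 (2.33-fold lower, adjusted p = 0.0453). That call held in 4 of 26 alternatives and did not survive leaving out any 1 of the LPS arrays, knockout control 1 or 3, or wild-type control 2 (adjusted p up to 0.278).

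Lists of replication and mitosis genes outside the 42 were read beside them. Of 36 other replication genes, 9 fell and 1 rose in the average (14.3% and 8.52% of all genes), 10 fell in knockout spleen (9.71% of all genes) and 1 in wild-type spleen (4.16%), with medians of -0.72, -0.99 and -0.50. Rpa1, a subunit of the protein that coats single-stranded DNA, read 1688, 1708 and 1710 against 859, 728 and 761 in wild-type spleen and 2058, 2021 and 1522 against 477, 608 and 433 in knockout spleen. All LPS mice lay below all controls. Rpa1 fell by 1.12 ± 0.18 in wild-type spleen (2.18-fold, adjusted p = 0.00453, and up to 0.196 over alternatives) and by 1.89 ± 0.18 in knockout spleen (3.69-fold, adjusted p = 0.000137). Pold1, the catalytic subunit of polymerase delta, and Orc5, of the origin recognition complex, fell by 1.27 ± 0.23 and 1.70 ± 0.31 in the average (adjusted p = 0.00332 and 0.00337). Of 46 other mitosis genes 10 fell and none rose in the average (median -0.87), 4 fell in knockout spleen and none in wild-type spleen, against the same shares of all genes; the knockout count is near its background. The condensin gene Ncapd2 fell by 1.87 ± 0.31 (3.66-fold, adjusted p = 0.00195), from 221, 307 and 253 to 72, 110 and 79 in wild-type spleen and from 654, 204 and 201 to 48, 107 and 60 in knockout spleen. Knockout control 1 was the highest array for 30 of the 36 and for 43 of the 46. Without it 9 and 12 genes fell in the average (16.6% of all genes), at medians of -0.45 and -0.61.

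Markers of lymphocytes and macrophages are given beside these results. Over all genes 14.3% fell and 8.52% rose in the average, and 4.16% fell in wild-type and 9.71% in knockout spleen. Of 12 T cell markers 6 fell and none rose in the average (median -0.82), with 1 in wild-type and 2 in knockout spleen. Of 10 B cell markers 4 fell and none rose in the average (median -0.77), with 0 in wild-type and 3 in knockout spleen. Of 8 red pulp macrophage markers 7 fell in the average. The 4 measured germinal centre markers gave 1 rise and 1 fall in the average, and the 7 plasma cell markers 2 rises and 1 fall. The part of these cell types in the lower cell cycle signal was not tested.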

How the data were processed

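Per the series' design text, the authors processed the scanned arrays with RMA in the R affy package. The deposited values are whole-number intensities on a linear scale, 1 per probe set, and their rounding matters most for dim genes, since 30.8% of values are under 20. Intensities were log2-transformed here. Of 22690 probe sets, 64 controls were left out and 22626 tested. The platform annotation named 1 gene for 20380 probe sets, and 691 carried several and 1555 no gene. The probe set with the highest mean stood for its gene, _x_at only where there was no other. Means of the 4 groups were fitted by limma 3.58.1 in R 4.3.3, without blocks (8 residual and 2.722 prior degrees of freedom). Values after ± are limma's standard errors. P-values were adjusted by Benjamini-Hochberg over all probe sets within each of 6 contrasts. The fit was tested on simulated data. Members, roles, pathway and marker lists were chosen with earlier results of these data known. Full values were given for called members, up to 4 per role, otherwise for the brightest of a role, and for further genes chosen after their values were seen. The pathway genes named come from up to 4 called genes per list. The number of arrays limits the precision. Alternatives changed scaling, floor, filter, probe set choice, weights, samples, a replicate block and a red cell covariate.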

Additional observations from a re-analysis of the deposited data

How the results depend on the processing

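Of 26 alternatives, 12 left out 1 array and 1, without knockout control 1 and wild-type control 2, was chosen after seeing the data. Over 6426 combinations of member, comparison and alternative, 6210 kept direction or side of the threshold, 140 lost a call and 76 gained one; 356 changed sign while not called, and no called member did. The cause of the shifts that follow was not tested. Members that fell in knockout spleen (5) and in the average (8) numbered 0 and 2 with every array shifted to 1 median, 2 and 4 with quantile normalization, 1 and 2 with cyclic loess, 1 and 2 with values under 20 raised to 20, and 8 and 16 with array quality weights. The shares of all genes that fell, in the same order and against 9.71% and 14.3%, were 6.12% and 10.1%, 8% and 12.5%, 7.9% and 12.3%, 7.16% and 11.3%, and 13.4% and 18.9%. In knockout spleen and in the average, 19 and 13 members fell with the red cell covariate (11.9% and 15.6% of all genes). Without knockout control 1 and wild-type control 2 these counts were 4 and 5 (10.6% and 14.6%). In that fit 1 member rose in knockout spleen (4.43%), where the members' median was -0.55. The fit without wild-type controls 2 and 3, which leaves 1 wild-type control, is described above. With only the groups of the contrast 0 fell in knockout spleen (4.64% of all genes). In wild-type spleen 1 member fell with array quality weights (8.39% of all genes) and 1 with the red cell covariate (5.52%). After LPS, array quality weights called 1 member higher (3.8% of all genes) and 2 lower (6.53%) between genotypes. With a replicate block, 3 fell in knockout spleen, 9 in the average and 0 in wild-type spleen (8.73%, 13.7% and 3.39% of all genes). In their deviations from the group means, same-numbered arrays correlated at -0.58 to 0.63, and 6 of 18 pairs exceeded 0.1. Differently numbered arrays spanned a like range, -0.63 to 0.62, so this check cannot tell whether replicate numbers pair the mice. With 1 array left out, members that fell ranged from 0 to 1 in wild-type spleen, 0 to 10 in knockout spleen and 1 to 16 in the average. The shares of all genes that fell ranged from 1.43% to 5.74%, from 4.59% to 11.6% and from 10.3% to 16.6%. Members that rose ranged from 0 to 1 in knockout spleen (all genes 3.38% to 5.71%) and from 0 to 1 in the average (6.57% to 8.7%). The members' median then ranged from -1.79 to -0.55 in knockout spleen and from -1.02 to 0.22 for the interaction. Spc25, a kinetochore gene called in the averaged response (-1.54 ± 0.48), read 0.10 on its dimmest probe set. Rounding to whole numbers and low signal limit the 7 dim members most.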

Other observations

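The 42 members were covered by 79 probe sets, and 20 members had more than 1. Of the 37 further sets, 4 passed the test in the averaged LPS response, all of them _x_at sets of members not called on their own set: both further sets of Cdc20 (-1.31 ± 0.32, adjusted p = 0.0145, and -0.58 ± 0.16, adjusted p = 0.0276), 1 of Kif2c (-1.20 ± 0.33, adjusted p = 0.0269) and 1 of Rrm2 (-1.66 ± 0.51, adjusted p = 0.0412). The sets used for these 3 members gave -0.91 ± 0.37, -0.25 ± 0.35 and -1.32 ± 0.63. For 4 members, Cdca3, Chek1, Mcm6 and Top2a, sets differed in the sign of the averaged response, and none of their sets passed. For Mcm7, whose own set fell, the 3 further sets gave -0.41 ± 0.37, -0.65 ± 0.29 and -0.66 ± 0.22, and none passed.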
